A study of Mus musculus with 13 samples.

Results

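The comparison described here is the difference between 2 responses to interleukin 4 (IL-4) in mouse bone marrow-derived macrophages. For every gene, the log2 change from vehicle to IL-4 in control cells was subtracted from the same change in cells lacking the histone deacetylase HDAC3. A negative difference therefore means a smaller rise, or a larger fall, in the HDAC3 knockout (KO). All 13 arrays of the study entered the comparison, and 20897 genes were measured well enough above background to be tested. The same number can be read the other way, as the KO-minus-control gap under IL-4 minus that gap in vehicle.

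Macrophages were grown for 6 days from the marrow of male C57BL/6J mice aged 12 to 16 weeks, in medium with 30% L929-conditioned supernatant, a source of macrophage growth factor. Control cells carried Hdac3 with exons 4 to 7 between loxP sites and no stated Cre, and KO cells carried the same floxed gene plus Cre recombinase under the lysozyme M promoter, which is active in myeloid cells. Loss of HDAC3 thus came together with Cre in every KO sample, and its completeness depends on how many cells had recombined. Treatment lasted 24 hours, with IL-4 at 10 ng/mL or with 0.1% bovine serum albumin as the vehicle. There were 4 control vehicle, 3 KO vehicle, 3 control IL-4 and 3 KO IL-4 arrays. Nothing in the labels ties the arrays of a group to separate mice or cultures, so p-values reflect only how these samples vary, and that variation may be technical.

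IL-4 binds a receptor containing the Il4ra chain and activates the transcription factor Stat6, which binds DNA and drives the alternative activation programme of macrophages. That programme includes the arginine-hydrolysing enzyme Arg1, the chitinase-like proteins Chil3 and Chil4, the resistin-like protein Retnla and lectin receptors such as Mrc1 and Clec7a. HDAC3 is the deacetylase subunit of the NCoR and SMRT corepressor complexes, which remove acetyl groups from histones at repressed genes.

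The promoter windows of 3 genes are shown. Ptgs1 and Clec7a were among the 3 genes of lowest p with a smaller KO response (the other, Egr2, is not shown). Retnla, the gene with the largest IL-4 response named here, had a positive difference. Chil3 was also looked up and gave no match, so the genes shown are not a comparison of groups. Windows span 250 bases before to 50 bases after the annotated start (RefSeq, GRCm38.p6). They were searched on both strands for TTCNNNNGAA, the spaced palindrome recognised by Stat6, and a match is set in capitals. The motif occurred in 6.95% of 32851 promoter windows. It occurred in 2 of the 12 genes of lowest p with a smaller KO response. Of the corresponding genes with a more positive KO response, 9 had a window and 1 had the motif. Of 22 chosen IL-4 and eicosanoid genes with a window, 3 had it, against 6.96% of tested genes with a window. The whole Ptgs1 window (chr2:36230176-36230475, plus strand) had no match, and for Clec7a (chr6:129472876-129472935, minus strand) and Retnla (chr16:48842439-48842498, plus strand) the 60 bases around the match are given.
Ptgs1: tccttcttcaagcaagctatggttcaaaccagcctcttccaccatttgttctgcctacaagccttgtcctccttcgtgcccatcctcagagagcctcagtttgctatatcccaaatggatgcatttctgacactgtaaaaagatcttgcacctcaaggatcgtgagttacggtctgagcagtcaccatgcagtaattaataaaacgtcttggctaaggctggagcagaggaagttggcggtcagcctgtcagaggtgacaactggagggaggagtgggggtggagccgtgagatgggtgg
Clec7a: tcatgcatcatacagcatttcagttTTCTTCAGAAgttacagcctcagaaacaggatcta
Retnla: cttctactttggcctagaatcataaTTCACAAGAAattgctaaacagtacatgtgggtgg
The match began 145 bases before the Retnla start and 131 or 125 bases before the 2 annotated Clec7a starts. A match is a string of letters and not a measured binding site, and the absence of a match covers this window only.

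Levels are given as log2 signal relative to the 75th percentile of the same array, so 0 is the 75th percentile and 1 unit is a 2-fold step. Levels of different genes come from different probes and were not compared with each other. Between 56.2% and 83.2% of spots per array stood well above background, no spot was saturated, and the array with the lowest share was control vehicle array 4. The KO IL-4 arrays varied most, with a median SD over genes of 0.245 against 0.149 to 0.186 in the other groups. All 11 macrophage markers examined were well above background on every array. The summed signal of 10 eosinophil, mast cell and basophil markers was lower in KO vehicle (20.9 to 24.3) than in control vehicle (38.7 to 44.3), and in IL-4 it was 27.7 to 36.6 in control and 23.3 to 25.9 in KO. Ccr3, a chemokine receptor, made up nearly all of it, at 19.7 to 23.2 in KO vehicle and 37.7 to 43.2 in control vehicle on the same linear scale. Its part in the results below was not tested.

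The targeted gene behaved as labelled in both conditions. The Hdac3 level was -1.70, -2.14, -2.01 and -2.18 on the control vehicle arrays and -3.67, -3.12 and -3.46 on the KO vehicle arrays. With IL-4 it was -1.89, -2.28 and -1.80 in control and -3.16, -3.35 and -4.02 in KO, the last of which was not well above background. Every KO array lay below every control array. The IL-4 response of Hdac3 was 0.02 in control and -0.09 in KO, a difference of -0.11 (SE 0.319), with no fixed sign over the alternative settings. In bulk RNA, a smaller number of cells expressing a gene and less transcript per cell cannot be told apart, and whether the Hdac3 probe lies in the deleted exons was not examined.

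Only Ptgs1 had a response that differed between genotypes after adjustment over all genes. That is 1 of 20897 genes (0.00479%) at an adjusted p under 0.05 (limma, Benjamini-Hochberg), and it responded less in KO; no gene with a larger KO response passed. At an unadjusted p under 0.05, 811 genes differed (3.88%), of which 335 responded more positively in KO (1.60%) and 476 more negatively (2.28%). Without KO vehicle array 7 the calls were 3 smaller and 1 larger, and without KO vehicle array 6 they were 1 smaller and 1 larger; no other array changed them. Equal responses of every gene would give about 1045 genes at that level. By comparison, IL-4 itself raised 577 genes (2.76%) and lowered 601 (2.88%) in control, and raised 242 (1.16%) and lowered 212 (1.01%) in KO. Of 382 genes called in both genotypes, all moved the same way in both. The responses share no array, although arrays of both genotypes lay on the same slides; across all genes tested they correlated at r = 0.614, with genes not being independent replicates.

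**Figure D1:**
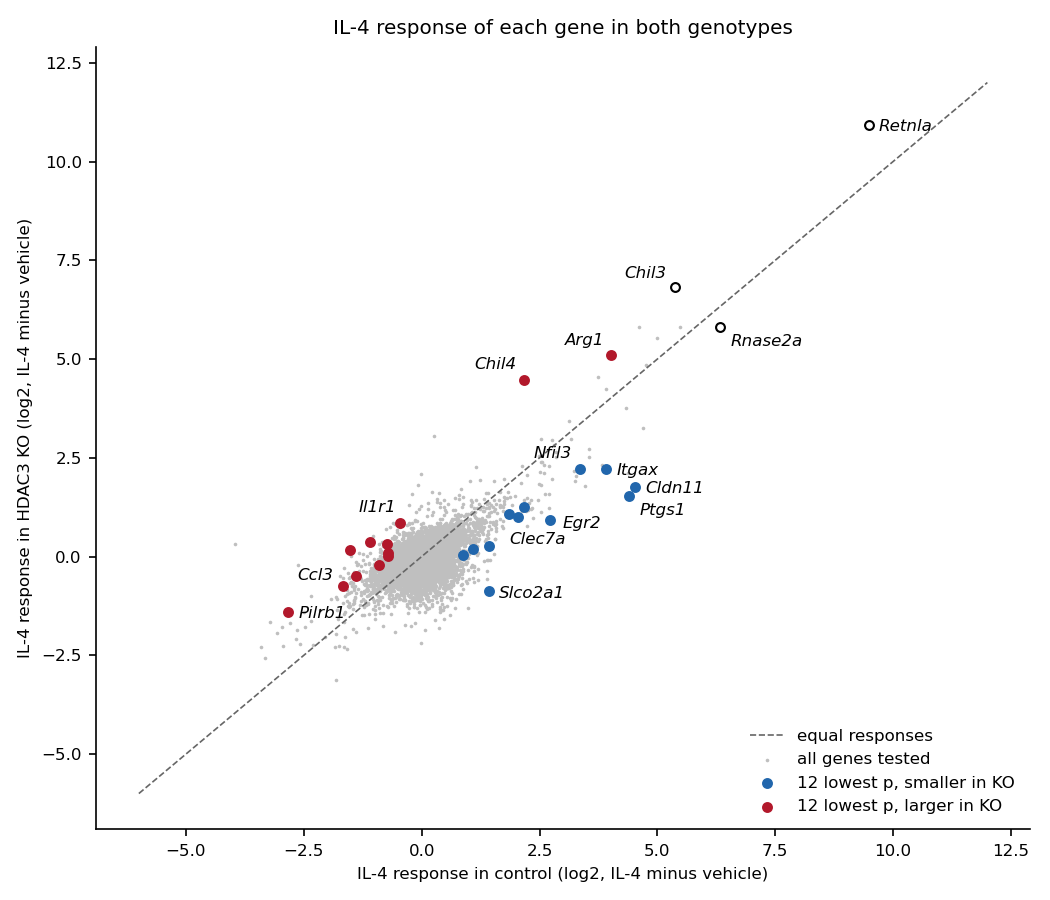
Each point is a gene, with its IL-4 response in control on the horizontal axis and in HDAC3 KO on the vertical axis, both in log2; the dashed line marks equal responses, filled colours mark the genes of lowest p in each direction, and open circles other named genes. Ptgs1 lies farthest below the line among the named genes (4.40 in control, 1.54 in KO), Cldn11 lies beside it, and Retnla, Chil3, Arg1 and Chil4 lie above it.

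Ptgs1 encodes cyclooxygenase 1, the constitutive enzyme that converts arachidonic acid to prostaglandin H2. It was read by a probe of 60 bases at chr2:36105892-36105951 (mm9, plus strand, per the file headers; annotation of that build was not used here) that begins gagccacacttagactctttccaaagatgt. Its level was -2.36, -2.20, -1.95 and -2.50 on the control vehicle arrays and 1.23, 1.05 and 1.19 on the KO vehicle arrays. With IL-4 it reached 2.21, 2.22 and 2.01 in control and 2.35, 2.92 and 2.79 in KO. The 4 groups did not overlap: control vehicle was low, KO vehicle sat most of the way up, and both IL-4 groups were high.

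The IL-4 response of Ptgs1 was therefore 4.40 (SE 0.157) in control and 1.54 (SE 0.168) in KO. The difference was -2.86 (SE 0.230, 95% interval -3.37 to -2.36, limma adjusted p = 0.00116), so the KO fold response was 0.137 of the control one. The KO-minus-control gap shrank from 3.41 in vehicle to 0.54 in IL-4. On the slides that held all 4 groups the difference was -3.44 and -2.54, with 1 array per group and no test. Ptgs1 passed in all 25 alternative settings, at adjusted p-values from 8.32e-06 to 0.0104 and differences from -2.98 to -2.08.

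The 4 genes whose levels followed Ptgs1 most closely over the 13 arrays were Clec7a (Pearson r = 0.985), Egr2 (0.981), Tnfrsf21 (0.973) and Vwf (0.971). These are descriptions of similarity only, since the arrays fall into 4 groups. Each of the 4 was higher in KO vehicle than in control vehicle and rose with IL-4 in control, and each had a negative difference of responses, from -0.41 for Tnfrsf21 to -1.80 for Egr2.

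The 12 genes with the lowest p and a smaller KO response all rose with IL-4 in control (limma adjusted p under 0.05), and 8 of them rose in KO as well. None except Ptgs1 passed adjustment, and their adjusted p-values ran up to 0.654. They were sorted into kinds by the condition in which the genotype gap was larger. In 8 of the 12 the genotype gap was larger in vehicle than in IL-4, and in the other 4 (Cldn11, Slco2a1, Spint2 and Ankrd37) it was larger in IL-4. These kinds were not sharply separate. In 9 of the 12, Slco2a1 among them, every KO vehicle array lay above every control vehicle array. The Plekhg1 gap changed sign, from 0.59 in vehicle to -0.33 in IL-4. Among the 12 genes of lowest p with a more positive KO response, the gap was larger in vehicle in 3. Over all genes tested it was larger in vehicle in 42.8%. The genes were chosen for the difference between these gaps, so the counts are descriptions.

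Egr2, an immediate-early zinc finger transcription factor induced by IL-4, showed the first kind. Its level was 4.19, 3.65, 4.08 and 4.24 in control vehicle, 6.19, 6.20 and 5.65 in KO vehicle, 6.81, 6.70 and 6.79 in control IL-4, and 6.97, 6.94 and 6.92 in KO IL-4. KO cells thus started 1.97 above control and ended 0.17 above. The response was 2.73 in control and 0.93 in KO, both called, and the difference was -1.80 (SE 0.237, 95% interval -2.32 to -1.28, limma adjusted p = 0.088). It passed in 7 of 25 alternative settings, with adjusted p-values from 0.00165 to 0.448.

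Clec7a, the beta-glucan receptor dectin-1, was 4.34, 4.18, 4.30 and 4.45 in control vehicle and 5.79, 5.83 and 5.48 in KO vehicle. With IL-4 it was 6.41, 6.31 and 6.34 in control and 6.64, 6.80 and 6.64 in KO. No groups overlapped, and the gap narrowed from 1.38 to 0.34. The responses of 2.04 and 0.997 differed by -1.04 (SE 0.155, limma adjusted p = 0.198; it passed in 4 of 25 settings).

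Nfil3, a basic leucine zipper transcription factor regulated by IL-3 and IL-4, rose by 3.36 in control and 2.22 in KO, a difference of -1.13 (adjusted p = 0.296). Itgax, the integrin chain CD11c, rose by 3.92 and 2.23, a difference of -1.69 (adjusted p = 0.654). Its level was 0.80 to 1.56 in control vehicle and 2.62, 3.58 and 3.75 in KO vehicle, then 4.92 to 5.21 and 5.37 to 5.74 with IL-4. Gatm, which makes the creatine precursor guanidinoacetate, differed by -0.78 and Sowahc by -1.15, and Plekhg1 by -0.92. In each of these the KO vehicle arrays lay above the control vehicle arrays, and a 2nd probe for Nfil3, Itgax and Sowahc gave differences of -0.81, -1.21 and -1.13.

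**Figure D2:**
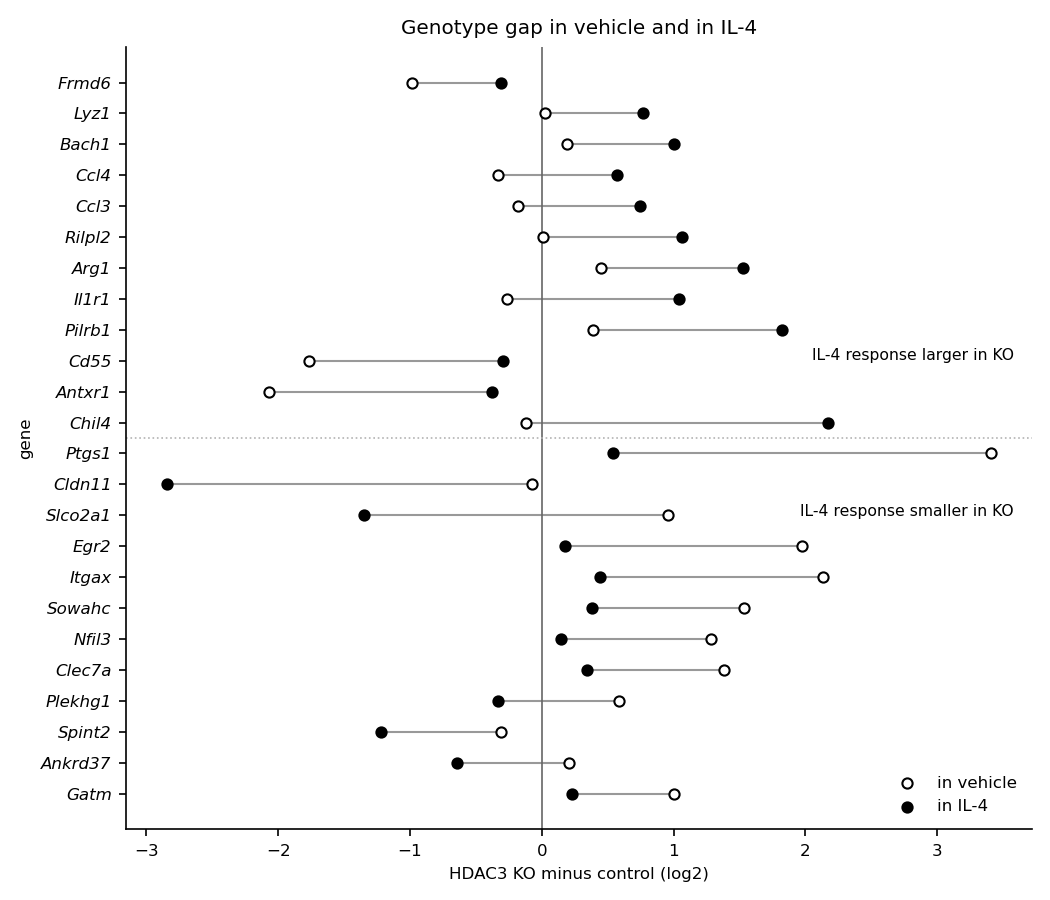
For the 12 genes of lowest p in each direction, open circles give the KO-minus-control gap in vehicle and filled circles the gap in IL-4, in log2; the line between them is the difference of responses. For Ptgs1, Egr2, Itgax, Sowahc, Nfil3, Clec7a and Gatm the open circle is far to the right and the filled one nearer to 0, whereas for Cldn11 the open circle is at -0.08 and the filled one at -2.84.

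Cldn11, a tight junction claudin, showed the other kind. In vehicle the genotypes overlapped, at -1.94, -2.82, -2.16 and -2.77 in control and -2.21, -2.93 and -2.35 in KO. With IL-4 it reached 2.04, 2.59 and 1.68 in control but -1.01, -1.19 and -0.01 in KO, with no overlap. The response was 4.53 (SE 0.334) in control and 1.76 (SE 0.357) in KO, both called. The difference of -2.76 (SE 0.488, 95% interval -3.83 to -1.69) did not pass adjustment (limma adjusted p = 0.296), and it passed in 2 of 25 settings.

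Slco2a1, a transporter that takes prostaglandins into cells, had opposite signs in the 2 genotypes. It was -3.39, -3.30, -3.93 and -4.21 in control vehicle and -1.85, -2.34 and -2.66 in control IL-4, a response of 1.42 that was called. In KO it was -3.27, -2.39 and -2.59 in vehicle and -3.57, -3.52 and -3.81 with IL-4, a response of -0.88 that was not called (adjusted p = 0.197). The difference was -2.31 (SE 0.402, adjusted p = 0.296). The signal was low throughout: 2 control vehicle arrays and 1 KO IL-4 array were not well above background, and the difference ranged from -2.57 to -1.01 over 24 settings. Spint2, a serine protease inhibitor, responded by 1.09 in control and 0.18 in KO (difference -0.91), and Ankrd37 by 0.88 and 0.03 (difference -0.85).

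**Figure D3:**
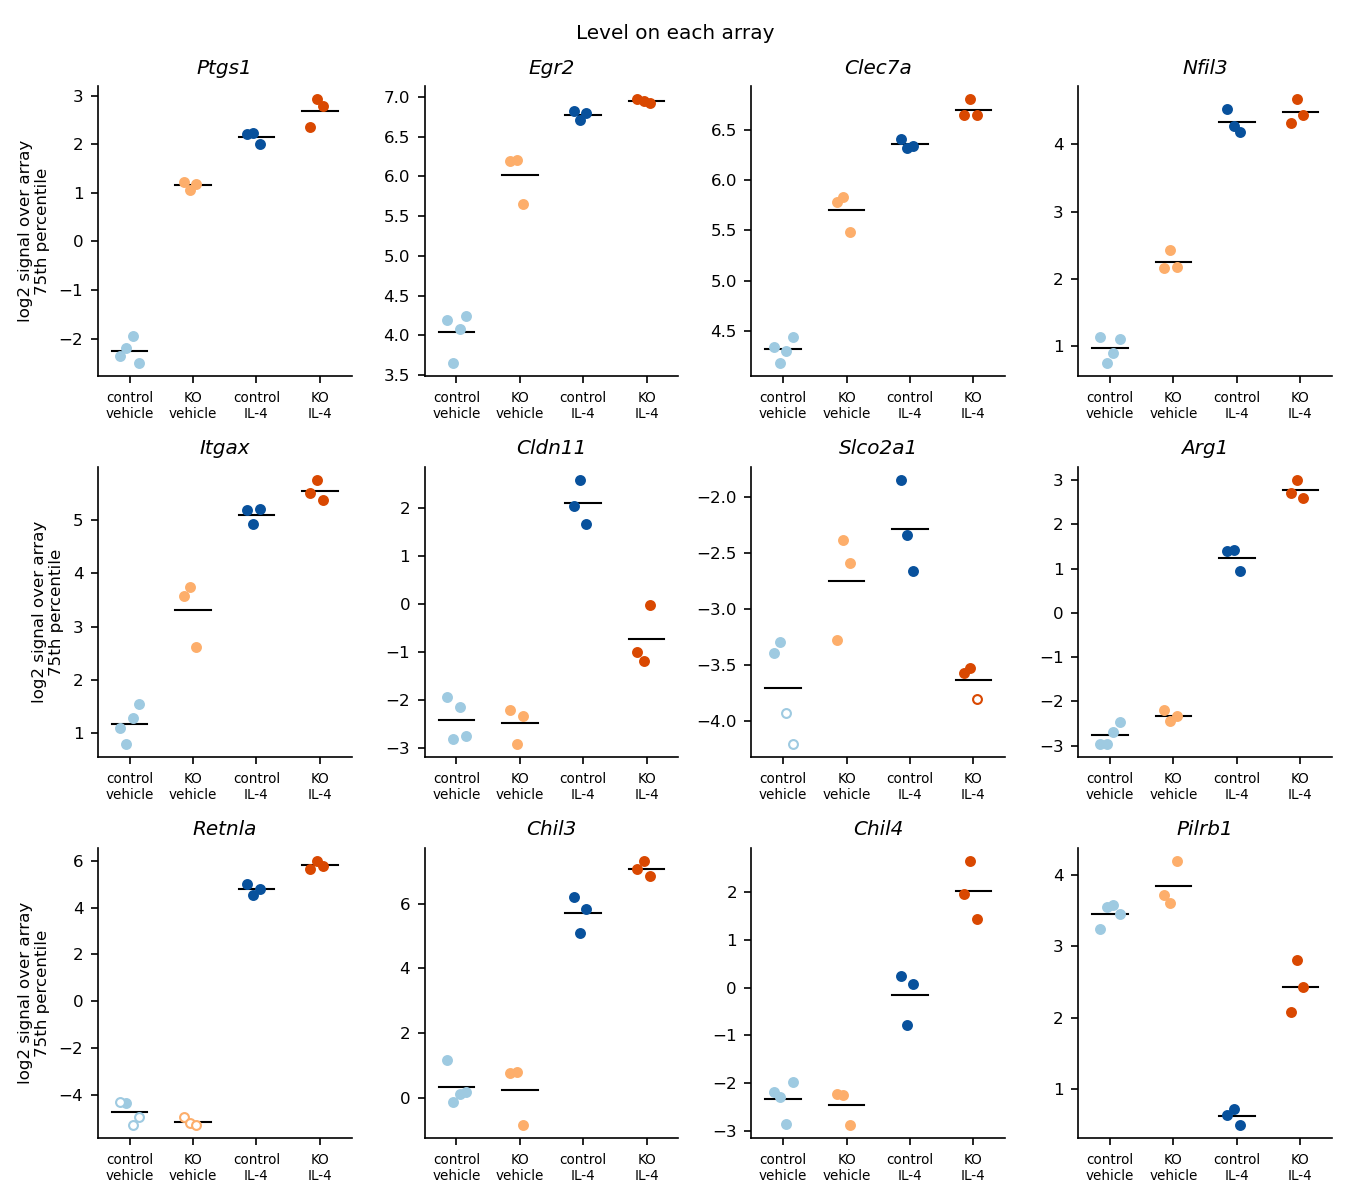
Level of 12 genes on each of the 13 arrays, as log2 signal over the array's 75th percentile; each circle is an array, open circles were not well above background, and bars are group means. Ptgs1, Egr2, Clec7a, Nfil3 and Itgax are raised in KO vehicle, Cldn11 is low in KO IL-4, and Arg1, Retnla, Chil3 and Chil4 are highest in KO IL-4.

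Several defining alternative activation genes had larger fitted responses in KO, though none passed adjustment in the difference. Arg1, which converts arginine to ornithine and urea, was -2.96, -2.97, -2.69 and -2.47 in control vehicle and -2.19, -2.44 and -2.33 in KO vehicle. With IL-4 it was 1.39, 1.41 and 0.94 in control and 2.71, 3.00 and 2.60 in KO, so the genotypes did not overlap with IL-4. It rose by 4.02 (SE 0.163) in control and 5.09 (SE 0.174) in KO. The difference was 1.08 (SE 0.239, 95% interval 0.55 to 1.60, limma adjusted p = 0.678) and stayed between 0.92 and 1.21 in all 25 settings without passing in any.

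Chil4 was -2.19, -2.30, -2.85 and -1.99 in control vehicle and -2.23, -2.24 and -2.89 in KO vehicle. With IL-4 it was 0.24, -0.78 and 0.08 in control and 1.97, 2.65 and 1.44 in KO. It rose by 2.18 in control and 4.48 in KO, a difference of 2.30 (SE 0.481, 95% interval 1.24 to 3.35, adjusted p = 0.539). Chil3 rose by 5.37 and 6.83, a difference of 1.46 (95% interval 0.10 to 2.83, adjusted p = 0.999). Its IL-4 arrays were 6.19, 5.10 and 5.84 in control against 7.06, 7.30 and 6.86 in KO. Chil3 and Chil4 are close paralogues, and cross-hybridisation between their probes was not tested.

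Retnla had the largest fitted rise of the genes named here. In vehicle it was well above background on none of the KO arrays and on 1 of 4 control arrays, and it reached 5.01, 4.52 and 4.79 in control and 5.65, 5.97 and 5.75 in KO with IL-4. Its fitted control response was 9.48, and the KO response is a bound of at least 982-fold against the background. The fitted difference of 1.44 (95% interval 0.70 to 2.18, adjusted p = 0.689) rests in part on vehicle signals at background. The part measured on both sides is the gap of 1.02 with IL-4, where the groups did not overlap.

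Among the 12 genes of lowest p with a more positive KO response, 9 fell with IL-4 in control and 3 of these also fell in KO, while Arg1 and Chil4 rose in both. Adjusted p-values ran from 0.296 to 0.678, so none passed. Ccl4, a chemokine for monocytes and T cells, was 6.67, 6.75, 6.67 and 6.75 in control vehicle and 5.39, 5.31 and 5.24 in control IL-4. In KO it was 6.25, 6.27 and 6.60 in vehicle and 6.00, 5.86 and 5.79 with IL-4. The fall was -1.40 in control and -0.49 in KO, a difference of 0.91 (SE 0.151, adjusted p = 0.296). The related chemokine Ccl3 had responses of -1.67 in control and -0.74 in KO, both falls, a difference of 0.92.

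Pilrb1, an activating paired immunoglobulin-like receptor, had responses of -2.84 in control and -1.41 in KO, both falls, a difference of 1.43 (SE 0.264, adjusted p = 0.323). Its level was 0.64, 0.71 and 0.49 in control IL-4 and 2.08, 2.80 and 2.43 in KO IL-4, from 3.24 to 3.58 and 3.61 to 4.19 in vehicle. Its paralogue Pilrb2 differed by 1.56, and the probes may share targets. Pilrb2 was well above background on only 1 of 3 control IL-4 arrays, and its difference ranged from 0.48 to 1.77 over 24 settings. Lyz1, a lysozyme, had responses of -0.72, a fall, in control and 0.02 in KO, and Bach1, a haem-sensing repressor, of -0.72, a fall, and 0.09. Rilpl2 had responses of -0.73 and 0.32. Il1r1, the IL-1 receptor, rose by 0.85 in KO, and its response of -0.45 in control was not called (difference 1.30, adjusted p = 0.296).

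Antxr1, Cd55 and Frmd6 fell in control from vehicle levels that the KO vehicle arrays did not reach. Antxr1 was -0.13 to 0.15 in control vehicle and -2.36 to -1.89 in KO vehicle, and every IL-4 array lay between -2.22 and -1.11. Its responses of -1.52 and 0.16 differed by 1.68 (adjusted p = 0.539). Cd55, an inhibitor of complement, differed by 1.47 on its brightest probe and by -0.58 on its other probe. It differed by -0.12 under normexp background correction with quantile normalization, so its direction was not settled. The brightest Cd55 probe was dim, at a mean of -2.12 in control vehicle. It was well above background on 1 of 3 KO vehicle and 2 of 3 KO IL-4 arrays. Frmd6 differed by 0.68 on its brightest probe and by 0.27 on its other probe.

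Among the upstream parts of the pathway no difference passed adjustment. Il4ra had responses of -0.27 in control and 0.13 in KO (difference 0.40, 95% interval -0.14 to 0.94), and Stat6 of -0.04 and 0.12 (difference 0.16, 95% interval -0.21 to 0.53); neither response was called. Across 21 receptor and signal transduction genes the median difference was -0.034, against -0.033 for all genes tested, with 2 larger and 3 smaller in KO at an unadjusted p under 0.05, against 1.60% and 2.28% of all genes. The 5 were Socs3 and the phosphatase Ptpn6 (0.63) with larger values, and Cish, the receptor chain Il13ra1 (-0.41) and the kinase Jak2 (-0.33) with smaller ones. The value of Cish rests on control vehicle signals at background, and its direction was not settled. Il13ra1 and Jak2 were named after their values were seen. Socs3, a feedback inhibitor of cytokine signalling, had the lowest p of that list: -1.50 in control, called, against 0.01 in KO, a difference of 1.51 (adjusted p = 0.794). Socs1, the inhibitor induced by Stat6, rose by 2.54 and 2.38, and the difference of -0.16 (95% interval -0.75 to 0.43) changed sign in some settings.

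Cish, another Stat6-induced inhibitor, was not well above background on any control vehicle array but was -2.63, -2.50 and -2.65 in KO vehicle. It rose at least 11.1-fold in control, and by 3.25 in KO, where it reached 0.53, 1.03 and 0.39 against -0.06, -0.69 and -0.66 in control IL-4. The fitted difference of -1.44 takes control vehicle signals at background at face value and was 0.06 under normexp correction, so no direction is given.

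Of 20 transcription factors tied to alternative activation, 7 rose with IL-4 in control (2.76% of all genes did) and 6 of these in KO too (1.16%). Their median difference was -0.010, with 1 larger and 4 smaller in KO at an unadjusted p under 0.05, against 1.60% and 2.28% of all genes. The median was -0.144 without KO vehicle array 7 and -0.214 on slide 1 alone. Irf4, which acts downstream of Stat6, rose by 2.54 in control and 2.98 in KO, a difference of 0.44 (95% interval 0.05 to 0.83, adjusted p = 0.999). It was -0.38, -0.30, -0.27 and -0.02 in control vehicle, -0.90, -0.99 and -0.88 in KO vehicle, 2.13, 2.26 and 2.49 in control IL-4 and 1.87, 2.20 and 2.10 in KO IL-4, so the KO started lower and ended at overlapping levels. Klf4 rose by 1.27 and 0.87 (difference -0.40, adjusted p = 0.999). Pparg, the fatty acid-sensing nuclear receptor, rose by 1.05 and 1.27, with a difference of 0.22 (95% interval -0.23 to 0.68).

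The 35 alternative activation effectors tested spread widely in both directions. IL-4 raised 23 of them in control (2.76% of all genes) and 17 in KO (1.16% of all genes), all 17 among the 23. Their median response was 1.11 in control and 0.88 in KO, and the median difference was -0.343 (-0.106 with no filter on dim probes), against -0.033 for all genes. At an unadjusted p under 0.05, 10 were smaller in KO (28.6%, against 2.28% of all genes) and 7 larger (20%, against 1.60%). These genes were listed for responding to IL-4, and with earlier results of these data known. Clec7a, Cldn11, Itgax, Chil4 and Arg1 are also among the 12 genes of lowest p each way. The counts are therefore descriptions. Among the 178 genes with a mean response of at least 1 that was called, the shares were 29.2% smaller and 4.49% larger. None of the list passed adjustment in the difference.

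Over all 35 effectors, 57.1% had a negative difference, against 55.7% of all genes. Members raised in control with an unadjusted p under 0.05 and a smaller KO response were Clec7a, Cldn11, Itgax, Flt1, Mgl2, Atp6v0d2, Mrc1, Cd274 and Fabp4, and those with a larger one were Chil4, Arg1, Retnla, Chil3 and Tfrc; Flt1, Mgl2, Cd274, Fabp4 and Tfrc were named after their values were seen. The mannose receptor Mrc1 was 3.61 to 3.82 in control vehicle and 4.22 to 4.34 in KO vehicle, and 4.98 to 5.25 and 5.13 to 5.19 with IL-4. It rose by 1.35 and 0.88, a difference of -0.48 (SE 0.134, adjusted p = 0.866). Atp6v0d2, a subunit of the vacuolar proton pump, rose by 1.72 in control, and its response of 0.73 in KO was not called. Flt1, a receptor for vascular endothelial growth factor, rose by 3.83 and 2.31, from a lower KO vehicle level (-1.36 against -0.84). The lectin Mgl2 rose by 3.28 and 2.04.

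Some effectors had differences whose intervals included 0, though not all of these were smaller in size than that of Mrc1. The lectin receptor Clec10a rose by 2.52 and 2.15 (difference -0.37, 95% interval -0.94 to 0.20), and the arginine transporter Slc7a2 by 4.34 and 3.76 (difference -0.58, 95% interval -1.18 to 0.02). Rnase2a, an eosinophil-associated ribonuclease, rose by 6.32 and 5.81 (difference -0.51, 95% interval -1.43 to 0.41). The intervals for these genes allow differences of about the size seen elsewhere in the list, so equal responses were not shown. Among 9 eosinophil-associated ribonucleases, 6 rose in both genotypes, against 211 of all 20897 genes tested. The median difference was 0.135, against -0.033 for all genes, with a median interval half-width of 1.32. None of the 9 had an unadjusted p under 0.05, against 3.88% of all genes, a share at which a list this short would hold few. The Ear genes among them are close paralogues, so their probes may not be independent. Ear3 and Ear7 were not well above background in either vehicle group and rose at least 15.3-fold and 13.02-fold in control and 33.4-fold and 31.5-fold in KO.

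**Figure D4:**
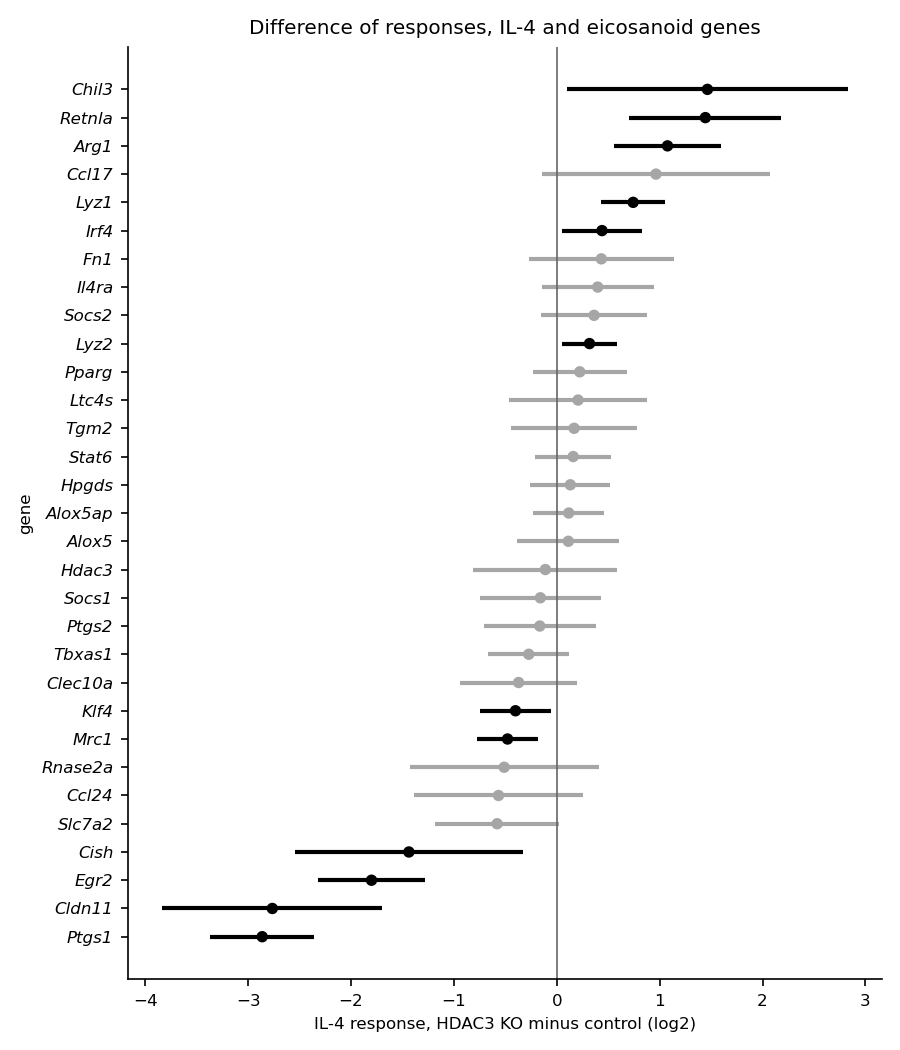
Difference of IL-4 responses, KO minus control, in log2, for 31 IL-4 and eicosanoid genes, with 95% intervals; black marks an unadjusted p under 0.05. Ptgs1, Cldn11, Egr2 and Cish are farthest to the left and Chil3, Retnla and Arg1 farthest to the right.

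Among 27 eicosanoid synthesis and receptor genes, 1 was called (0.00479% of all genes), and 1 was larger and 3 smaller in KO at an unadjusted p under 0.05 (1.60% and 2.28% of all genes); the median difference was -0.019. Pla2g7, which hydrolyses platelet-activating factor and was named after its values were seen, had the highest difference of the list (responses -0.74 and -0.10, difference 0.64, 95% interval 0.11 to 1.16). Ptgs2, the inducible cyclooxygenase, had responses of 0.54 and 0.38 (difference -0.17, 95% interval -0.71 to 0.38). Tbxas1, thromboxane synthase, rose by 0.79 in control, with 0.52 in KO (difference -0.27), and Hpgds, prostaglandin D synthase, had responses of -1.11 and -0.98, both falls (difference 0.13). The lipoxygenase Alox5 and its partner Alox5ap differed by 0.11 and 0.12, and leukotriene C4 synthase Ltc4s by 0.21.

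Of 26 classical inflammatory genes, 11 fell with IL-4 in control (2.88% of all genes) and 8 fell in KO (1.01%). At an unadjusted p under 0.05, 6 were more positive in KO, against 1.60% of all genes, and 2 more negative, against 2.28%; the median difference was 0.098. The formyl peptide receptor Fpr2 had responses of -3.41 in control and -2.30 in KO, both falls (difference 1.11, adjusted p = 0.999), and Nfkbiz, a regulator of NF-kappaB, of -3.08 and -1.95, also falls (difference 1.13). The KO vehicle level of Nfkbiz was 0.45, 0.58 and 1.72 against 2.05 to 2.58 in control vehicle, and the IL-4 levels overlapped. Cd14, the lipopolysaccharide co-receptor, instead had overlapping vehicle levels and remained higher in KO IL-4 (2.77, 3.25 and 2.97) than in control IL-4 (2.08, 2.15 and 2.11); its difference was 0.82.

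Among 37 interferon-stimulated genes, 67.6% had a negative difference, against 55.7% of all genes. Of these 37 genes, 12 fell with IL-4 in control (2.88% of all genes) and 16 in KO (1.01%). The median difference was -0.139, with 6 more negative and 1 more positive at an unadjusted p under 0.05, against 2.28% and 1.60% of all genes. On slide 1 alone the median was 0.152, so the direction of the list was not settled. Ifit1, which binds foreign RNA, had responses of -0.38 in control, not called, and -0.99 in KO, a fall; the difference was -0.61 (adjusted p = 0.727). It was 5.67, 5.71 and 5.77 in control IL-4 and 4.58, 4.25 and 4.24 in KO IL-4. Isg20, a ribonuclease, differed in the opposite direction, by 1.36.

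**Figure D5:**
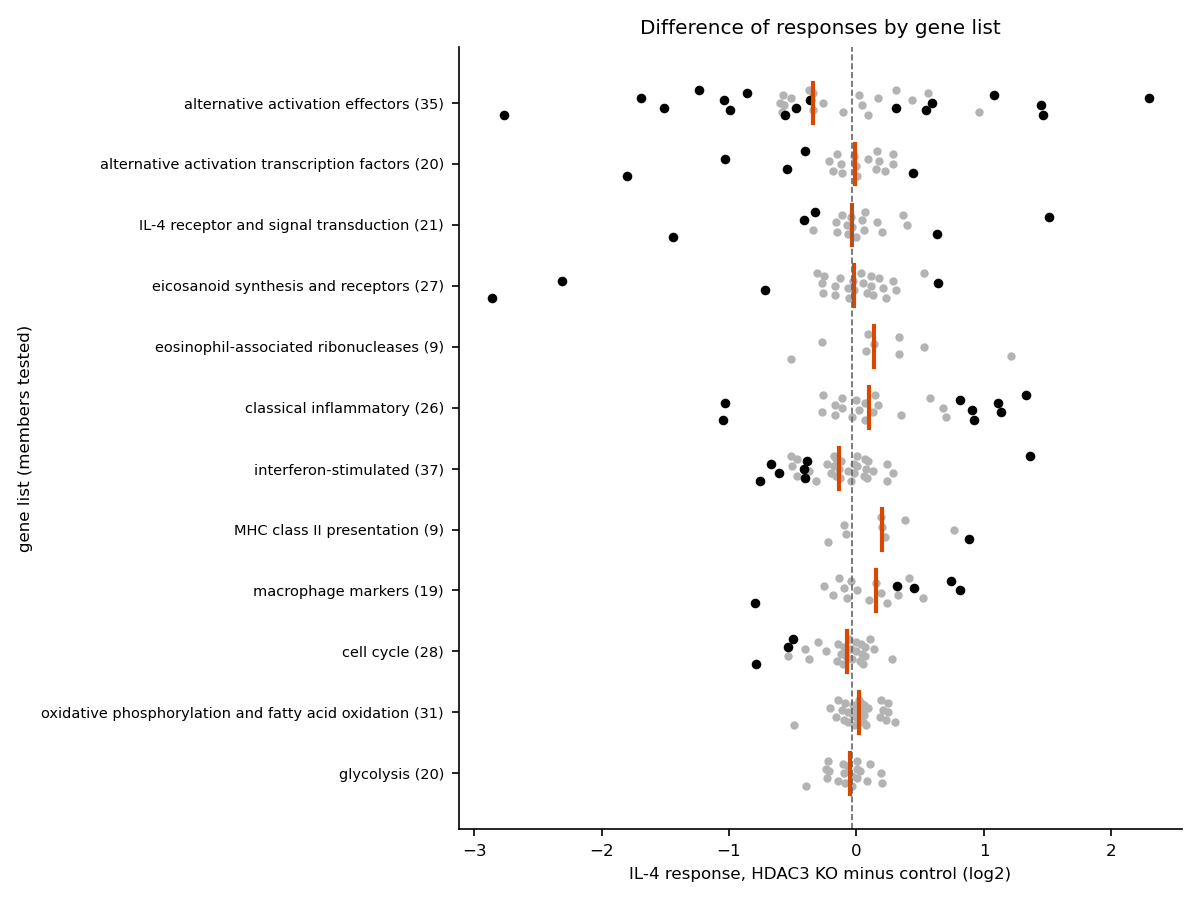
Difference of IL-4 responses, KO minus control, in log2, for the members of 12 gene lists (number tested in parentheses); black points have an unadjusted p under 0.05, orange bars are list medians and the dashed line is the median of all genes tested. The effectors spread from -2.76 to 2.30, whereas oxidative phosphorylation and glycolysis members cluster near 0.

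List medians of the metabolic, sterol and matrix remodelling genes lay near 0. No gene had an unadjusted p under 0.05 among 31 oxidative phosphorylation and fatty acid oxidation genes and 20 glycolysis genes. The same held for 25 sterol synthesis genes and 29 matrix remodelling genes. Over all genes the share was 3.88%, at which lists this short would hold few. The median differences of these lists were 0.023, -0.053, 0.0075 and -0.025. Matrix remodelling members ran from -0.73 to 0.44, with a median interval half-width of 0.70, so differences away from 0 were not excluded. Of 28 cell cycle genes, 3 had a more negative KO response at an unadjusted p under 0.05, against 2.28% of all genes. The lowest p was that of Cenpa (responses 1.14 in control and 0.35 in KO, limma adjusted p = 0.811). The 9 subunits and partners of the HDAC3 corepressor complex had a median difference of 0.046 (-0.053 with array weights). Cd74, the invariant chain of MHC class II, had responses of 1.03 in control, not called, and 1.91 in KO, a rise, from vehicle levels of 4.07 to 5.29 and 2.48 to 2.75 (difference 0.88, 95% interval 0.01 to 1.75).

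Markers of macrophages themselves moved with treatment. Of 19 tested, 7 fell with IL-4 in control (2.88% of all genes) and 3 in KO (1.01%). The median difference was 0.150, with 4 more positive and 1 more negative in KO at an unadjusted p under 0.05 (1.60% and 2.28% of all genes); on slide 1 alone the median was 0.0076. Lyz2 had responses of -0.41, a fall, and -0.10 in control and KO, and the phagocytic receptor Mertk of -0.88, a fall, and -0.44. The Lyz2 difference was 0.32 on its brightest probe and 0.95 on its other probe. The marker with a more negative KO response was Csf2rb, named after its values were seen. Its responses were 1.19 in control and 0.40 in KO, a difference of -0.79. These markers thus went both ways. Their part in the other results was not tested. Among 5 dendritic cell, 8 neutrophil, 9 T, B and NK cell and 12 stromal and erythroid markers tested, none had an unadjusted p under 0.05. Over all genes the share was 3.88%, at which lists this short would hold few. The median interval half-widths of these lists ran from 0.67 to 0.93, so differences away from 0 were not excluded. In the list of eosinophil, mast cell and basophil markers, Ccr3 differed by 0.54.

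With all arrays in, the KO response of genes that responded to IL-4 was on balance nearer to 0. For rises this was not seen without KO IL-4 array 13. Of 898 genes whose response averaged over genotypes was called as a rise (4.30%), 67.0% had a smaller rise in KO, against 55.7% of all genes with a negative difference; the median difference was -0.130. Of 839 called as a fall (4.01%), 71.2% had a smaller fall in KO, with a median difference of 0.129. Of all 20897 genes tested, 9253 had a positive difference. Among the 178 genes with a mean rise of at least 1, 76.4% had a smaller rise in KO and the median difference was -0.351, and among 94 genes with a mean fall of at least 1 the median was 0.328. These shares moved with single KO IL-4 arrays. Without KO IL-4 array 13 they were 54.3% for rises and 60.2% for falls. That 54.3% was below the 55.7% of all genes with all arrays in. Without array 14 the shares were 80.5% and 71.0%, and without array 15 they were 59.5% and 68.0%.

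The number of arrays set the precision. The median SE of a difference was 0.246, and the median 95% interval extended 0.538 on either side. Of the 178 genes with a mean rise of at least 1, 64 had an interval that lay within 1 unit of 0, so for the other genes of this set a difference of 2-fold or more lay within the interval.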

How the data were processed

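RNA of 13 mouse macrophage samples was measured on single-colour Agilent arrays. The deposited scanner files hold spot intensity on a linear scale, extracted with Agilent Feature Extraction 10.5.1.1 per the file headers; the submitters' processing notes name version 9.53, and limma without a version. Other columns used per the file headers are flags for outlier spots and for signal well above background. The authors' value table holds linear intensity whose normalization is not given in the sources used here; it served as an alternative.

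Control and outlier spots were left out, spots of a probe were averaged, and values are log2 of gProcessedSignal, the background-subtracted intensity per the file headers, minus the 75th percentile of that array's probes. A probe was kept if all arrays of some group had it well above background (29059 of 41174), and the brightest probe stood for its gene. Genes were named through RefSeq accessions where these matched (76.4% of probes). Group means were fitted to all arrays with limma 3.58.1 in R 4.3.3 (lmFit, eBayes, two-sided) with Benjamini-Hochberg adjustment over 20897 genes. A fold written "at least" is a bound for a gene whose dim group was nowhere well above background: there, each array took the probe's own value or the lowest well-above-background signal, whichever was higher, and the mean of these was set against the bright group.

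The 4 slides each held at most 1 array per group, and 2 of them held all groups; since every group kept to a single position on the slides, the effects of position and group cannot be told apart. Deviations from the group mean correlated at a median of 0.270 between arrays of a slide and -0.088 between slides, and slide was tried as a block.

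Genes named are those called, the 12 of lowest p each way with a usable name, 37 chosen IL-4 and eicosanoid genes (31 passed the filter; Kdm6b, Cd209a, Ccl22, Cdh1, Ptges and Alox15 did not), the 6 largest mean responses each way, the 2 of lowest p per list and the 5 most like Ptgs1; 1 gene this rule takes is not reported here. Members and the 23 lists were chosen with earlier results of these data known. Scripts were tested on simulated data. Alternatives were other background corrections, normalizations, filters, probe rules, variance settings, slide blocks, array weights, the authors' values and leaving out each array.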

Additional observations from a re-analysis of the deposited data

Results flagged for a closer look

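The response of Ptgs1 differed between genotypes by a test of the difference itself, at -2.86 on the log2 scale (limma adjusted p = 0.00116); its values on every array are given above.

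In 6 of 97 gene levels examined, 1 control vehicle array lay far from the other 3; chance alone gives about 1 such group in 20. Alox5 was -0.160 on array 3 against -0.497 to -0.467 on the others. Alox5ap was 5.19 on array 2 against 5.33 to 5.36. Ccnd2 was -0.562 on array 1 against -0.827 to -0.790. Epx was -4.32 on array 3, not well above background, against -3.20 to -3.02. Ier3 was -1.0 on array 2 against -0.587 to -0.586, and Sdc1 was 0.457 on array 2 against 1.18 to 1.27. None of these genes had a called difference of responses.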

How the results depend on the processing

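Ptgs1 had a negative difference and passed in all 25 alternatives that fit a table of genes; leaving out single arrays gave -2.98 to -2.69, and slide 1 alone gave -3.44. The number of called genes depended on the setting. Genes called smaller and larger in KO numbered 2 and 0 under quantile normalization, with the authors' values, and with probes above background on all arrays (Ptgs1 and Egr2 each time), 5 and 3 under normexp with quantile normalization, 6 and 4 with trend and robust variance, and 3 and 1 with array weights. Leaving out single arrays gave 1 to 3 smaller and 0 to 1 larger, the extremes without KO vehicle array 7 (3 and 1) and without KO vehicle array 6 (1 and 1). Of 97 named genes, 13 were called in at least 1 setting and 12 changed sign in at least 1, none of them called in the main analysis.

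The median difference of the effectors was -0.106 with no filter on dim probes. That of the transcription factors ran from -0.144 to -0.0157 over the arrays left out and was -0.214 on slide 1; that of the corepressor complex was -0.053 with array weights. On slide 1 the medians were 0.152 for interferon-stimulated genes, -0.271 for glycolysis, 0.0076 for macrophage markers, 0.118 for eosinophil, mast cell and basophil markers and 0.244 for stromal and erythroid markers, and on slide 2 they were 0.145 for sterol synthesis and -0.185 for the cell cycle. The share of raised genes with a smaller KO rise ran from 54.3% to 80.5% over the arrays left out, and that of lowered genes with a smaller fall from 60.2% to 73.9%; these shares were added after the data were seen. The causes of these shifts were not tested. Array weights ran from 0.241 for KO IL-4 array 14 to 5.80 for control IL-4 array 12. Arrays of different groups could be matched by slide only, since the labels give them no shared number; slide as a fixed or as a random block left Ptgs1 the 1 called gene. Array number and, for dim genes, signal over background limit the precision.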
